A study of Mus musculus with 8 samples.

Results

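The immediate early genes Fos, Fosb, Jun, Junb, Egr1, Ier2, Ier3, Atf3 and Dusp1 were picked by their symbols, and all 9 were found among the 19348 genes measured in fasted mice, in liver and in eWAT, the white fat pad along the epididymis. RNA-seq libraries came from male C57BL/6 mice aged 12 weeks and fasted for 16 h, with 2 libraries in each of 4 groups, namely eWAT Crtc1-/-, eWAT Crtc1+/+, liver Crtc1-/- and liver Crtc1+/+. Crtc1-/- mice carry a germline deletion made by CRISPR/Cas9 with a pair of guides aimed at exons 2 and 4 of Crtc1, so the gene is changed in all cells of the body, and Crtc1+/+ mice were their wild-type littermates. By the study's methods 2 mice of each genotype gave both tissues, but neither they nor the labels say which liver library and which eWAT library came from one mouse.

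Immediate early genes are transcribed within minutes of a stimulus, from factors already present in the cell, and their transcripts are short-lived. Serum response factor with its Ets partners and CREB are the best known of these factors, and CRTC1 is a coactivator that binds CREB when it is dephosphorylated after a rise of cAMP or calcium. The FOS and JUN proteins pair to form the transcription factor AP-1, and DUSP1 closes the loop by removing phosphate from the MAP kinases that lead to their induction. In tissue, levels of these transcripts also respond to handling and to the time between death and freezing, which the labels do not give.

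The promoters are shown first because CREB, the partner of CRTC1, binds the palindrome TGACGTCA and its core TGACG. RefSeq promoter sequences of build GRCm38.p6 (250 bases before to 50 bases after each start) were found for 7 of the 9 genes, all except Egr1 and Ier2. TGACGTCA was found in 1 of the 7, Dusp1, and in 1.79% of all 32851 promoters of the same length. TGACG, searched on both strands and contained in TGACGTCA, was found in 5 of the 7 and in 20.8% of all promoters. In Dusp1 the palindrome lay at bases -143 to -136 from the start, and a further TGACG lay at -191. Fos held TGACG at 2 places, -129 and -66, Fosb held 1 at -60 from the start that its window uses, which lies 73 bases inside the RefSeq gene, so that this match falls within the gene, Junb held 1 at -106, and Atf3 held 1 on the opposite strand from -7 to -3. TGANTCA, the site of AP-1 itself, was found in 0 of the 7 and in 7.81% of all promoters, and the CArG box of serum response factor in 0 of the 7 and in 1.63%. CCAAT was found in 4 of the 7 against 37.4% of all promoters, and TATAAA in 2 of the 7 against 13.6%. A match describes the letters of the window and is not a bound site. A count of 0 holds for these windows only, since bases further from the start and the promoters of Egr1 and Ier2 were not searched. The 5 promoters that hold TGACG are given below with that of Jun, which holds none, 5′ to 3′ on the strand of the gene, with the matches to TGACG and TGACGTCA in capitals. The stretches are chr17:26508473-26508622 (minus strand, Dusp1), chr12:85473740-85473889 (plus, Fos), chr7:19310091-19310120 (minus, Fosb, the bases around its match), chr8:84978749-84978898 (minus, Junb), chr1:191183334-191183483 (minus, Atf3) and chr4:95052223-95052372 (minus, Jun), and apart from that of Fosb each ends at the base before the start.
Dusp1: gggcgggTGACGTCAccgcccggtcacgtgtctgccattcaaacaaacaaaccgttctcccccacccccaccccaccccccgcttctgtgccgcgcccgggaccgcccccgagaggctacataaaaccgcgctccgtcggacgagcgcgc
Fos: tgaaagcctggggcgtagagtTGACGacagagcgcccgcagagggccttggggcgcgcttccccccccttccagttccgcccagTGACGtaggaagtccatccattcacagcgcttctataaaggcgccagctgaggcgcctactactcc
Fosb: gcatggagttgcgggTGACGcaagcgcggg
Junb: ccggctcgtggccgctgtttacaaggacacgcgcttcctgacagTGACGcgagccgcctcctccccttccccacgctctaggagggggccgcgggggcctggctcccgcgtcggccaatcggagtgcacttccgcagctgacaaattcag
Atf3: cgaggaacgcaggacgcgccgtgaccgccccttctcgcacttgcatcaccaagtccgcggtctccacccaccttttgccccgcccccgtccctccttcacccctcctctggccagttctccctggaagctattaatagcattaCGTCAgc
Jun: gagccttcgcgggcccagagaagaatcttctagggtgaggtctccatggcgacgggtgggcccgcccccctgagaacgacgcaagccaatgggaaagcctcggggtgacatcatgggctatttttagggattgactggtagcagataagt

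The genes themselves are short. In RefSeq, Dusp1 (NCBI Gene 19252) runs on chromosome 17, minus strand, from 26505591 to 26508472, and Fosb (14282) on the minus strand of chromosome 7 from 19302696 to 19310118. Fos (14281) lies on the plus strand of chromosome 12 from 85473890 to 85477274, and Junb (16477) on the minus strand of chromosome 8 from 84976909 to 84978748. Jun and Junb each have a single exon in the GENCODE annotation of the same build, with transcripts of 3189 and 1809 nt. Their 3′ untranslated regions differed in ATTTA, the pentamer of AU-rich elements that mark unstable transcripts. Its density was 8.16 per kb in Ier3, 5.80 in Dusp1, 4.91 in Fos, 4.12 in Junb, 3.24 in Jun, 2.53 in Atf3, 1.65 in Egr1, 0.466 in Fosb and 0 in Ier2, and the median of the 9 was 3.24 against 1.31 over 19171 genes. Over these RefSeq spans GENCODE places 1 other gene, Junos, on the strand opposite Jun for 689 bases. The longer GENCODE models of Junb, Atf3 and Dusp1 also meet Prdx2 (Junb), Gm24748 (Atf3) and AC122252.4, AC122252.1, Gm8225 and Ergic1 (Dusp1, the first pair on its own strand), outside the RefSeq spans. The strand setting of the counting is not given in the sources used here, so reads of an overlap that was counted cannot be told apart.

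Library totals ran from 16560085 to 19721481 estimated counts, at which 3 counts, the level taken here as the floor, equal 0.152 to 0.181 CPM, counts scaled to the library total. Crtc1, the targeted gene, was not consistently lower in the libraries labelled Crtc1-/-. With CPM scaled within each tissue, it was at 58.5 and 33.6 CPM against 32.6 and 33.7 CPM in eWAT. In liver it was at 22.1 and 18 against 11.7 and 9.86 CPM. Scaled to the library total alone, eWAT Crtc1-/- was at 57.6 and 27.5 CPM against 36.9 and 36.9 CPM, so replicate 2 was then lower. The counts cover the whole gene and most of its transcript lies outside the targeted exons, so they do not check the labels, and genotypes are given as labelled. The eWAT libraries did not share one makeup. The 30 epididymis markers held 9.14% and 10.5% of all counts in eWAT Crtc1+/+ but 0.00597% and 0.00168% in eWAT Crtc1-/-, where 7 of them, Lcn6, Crisp4, Defb15, Defb41, Spink12, Bsph1 and Bsph2, had no count in either library. The 17 adipocyte markers held 0.335% and 0.535% in eWAT Crtc1+/+ and 5.32% and 2.71% in eWAT Crtc1-/-, and the 10 endothelial markers held 0.0427% and 0.0420% against 0.592% and 0.346%. The 13 hepatocyte markers, which held 19.1% to 23.1% in liver, reached 10.3% in eWAT Crtc1-/- replicate 2 against 0.0770% to 0.618% in the other eWAT libraries. In bulk tissue, fewer cells of a type and less RNA per cell cannot be told apart, and in eWAT the genotype cannot be told apart from this difference in makeup.

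**Figure D1:**
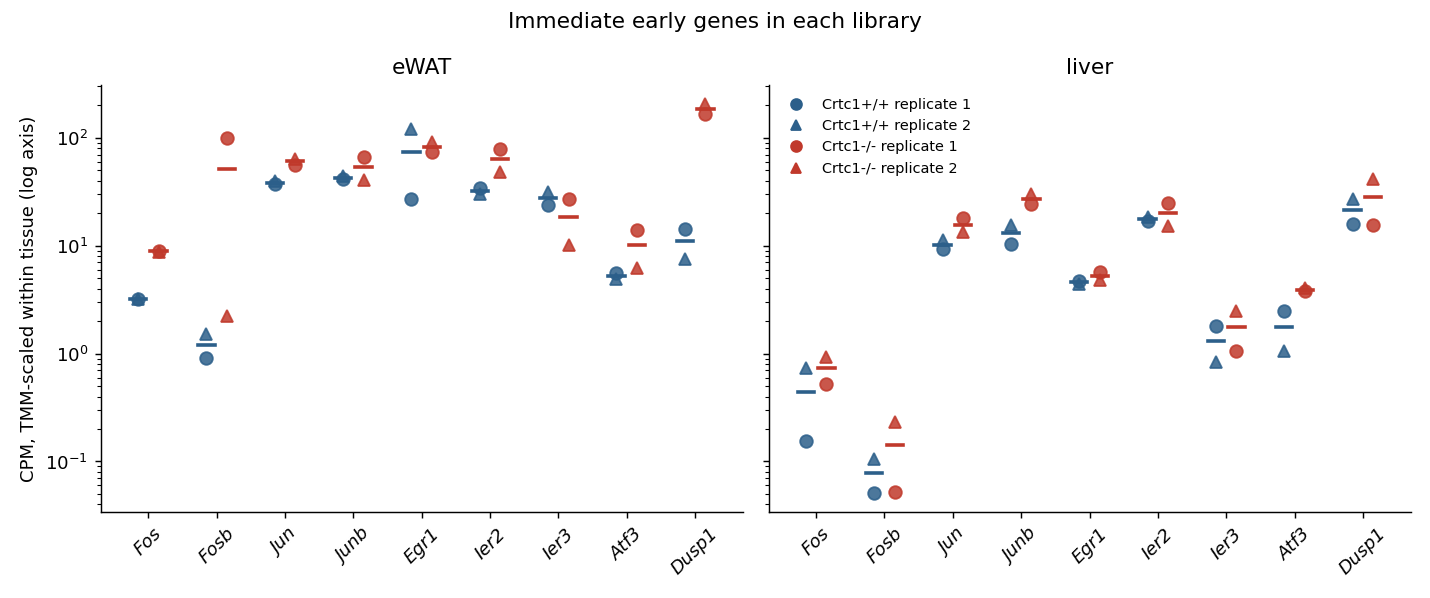
CPM of the 9 immediate early genes in each library, scaled within each tissue and drawn on a log axis, with a circle for replicate 1, a triangle for replicate 2 and a bar at the group mean (n = 2). In eWAT the Dusp1 points of Crtc1-/- lie far above those of Crtc1+/+, the Fosb points of Crtc1-/- lie 44.9-fold apart, and in liver Fosb lies lowest, at 0.0514 to 0.233 CPM.

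The first comparison asked how the genes differed between genotypes in eWAT, the tissue in which fasting mobilises stored fat. Dusp1 was 17-fold higher in Crtc1-/-, and it was the only one of the 9 with an adjusted p under 0.05 from edgeR's quasi-likelihood test. Fosb had a larger estimate, 42-fold, and was not called. Of the 15391 genes tested, 12.2% were called in either direction and 6.65% were called higher. At the study's own threshold for differentially expressed genes, a change of over 1 on the log2 scale in either direction together with an unadjusted p under 0.01, Dusp1 was again the only one, against 15.9% of all genes. The log2 fold changes of 8 of the 9 lay above 0, as did 48.5% of all genes tested, and their median was 0.96 against -0.05 over all genes. With upper-quartile scaling the median over all genes was -0.25, and scaling by library size made it -0.35, and 7 of the 9 then lay above 0. The split of all calls moved with it, from 1023 higher and 852 lower to 744 and 996 and to 587 and 1075. In 6 of the 9 both Crtc1-/- libraries lay above both Crtc1+/+ libraries, a pattern held by 31.3% of all genes. Summed, the 9 genes held 0.0586% and 0.0389% of the counts in eWAT Crtc1-/- and 0.0213% and 0.0312% in eWAT Crtc1+/+.

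Dusp1, the phosphatase that inactivates p38, JNK and ERK kinases, was at 168 and 205 CPM in eWAT Crtc1-/- and at 14.4 and 7.57 CPM in eWAT Crtc1+/+. Both Crtc1-/- libraries were high and close to each other, and the groups lay far apart. Its log2 fold change was 4.09 (SE, the standard error, 0.44, adjusted p = 0.0172), and it ranked 236 of 15391 genes by p. The call was lost without eWAT Crtc1+/+ replicate 1 (4.64, adjusted p = 0.143) and without replicate 2 of that group (3.72, adjusted p = 0.252), 2 settings under which 0 of all the genes were called, and held without either Crtc1-/- library. With the replicate number as a block it was also lost (4.15, adjusted p = 0.0543). Over the 4 fits that leave out a library the value ran from 3.72 to 4.64. Endothelial markers, which include the abundant genes Cdh5, Eng and Pecam1, moved with Dusp1, and 10 of 10 were called higher, as were 13 of 17 adipocyte markers, while 29 of 30 epididymis markers were called lower. Their part in the Dusp1 difference was not tested.

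The FOS proteins pair only with partners such as the JUN proteins to bind DNA. Fos was at 8.90 and 8.82 CPM in eWAT Crtc1-/- and at 3.18 and 3.22 CPM in eWAT Crtc1+/+. Replicates were almost equal in both groups and the groups did not overlap. The log2 fold change was 1.47 (SE 0.46) with an adjusted p of 0.104, so Fos did not pass the test, although it did with DESeq2 (adjusted p = 0.0176) and with limma on log2(FPKM + 1) (adjusted p = 0.0330). Fos rested on 62 to 162 reads per eWAT library.

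Fosb, the paralogue of Fos, was at 99.7 and 2.22 CPM in eWAT Crtc1-/- and at 0.915 and 1.5 CPM in eWAT Crtc1+/+. A single library was high, Crtc1-/- replicate 1, with 1814 reads against 32, 19 and 29 in the others. The log2 fold change was 5.39 with a SE of 1.80 (adjusted p = 0.114), and it fell to 0.88 (adjusted p = 0.581) without that library. With replicate 2 left out in its place the value was 6.32 (adjusted p = 0.00460). In the high library the Fosb reads were 11.2 times the Fos reads, whereas in the other 7 libraries the ratio lay between 0.10 and 0.468. Of the 15391 genes tested in eWAT, Fosb ranked 13 by the ratio of Crtc1-/- replicate 1 to replicate 2. The 12 genes above it, led by Mmp7, Calml3 and Cdh16 and named after their values were seen, differed from Fosb in their level in Crtc1+/+. Each was at 5.39 CPM (2410004P03Rik, replicate 2) or more in both Crtc1+/+ libraries, against 0.915 and 1.5 CPM for Fosb.

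Jun, a core subunit of AP-1, was at 56.7 and 64.3 CPM in eWAT Crtc1-/- and at 37.1 and 39.7 CPM in eWAT Crtc1+/+. The groups did not overlap, and the log2 fold change of 0.65 (SE 0.26, adjusted p = 0.161) did not pass the test. Junb, the JUN protein that activates transcription less strongly, was at 66.9 and 40.5 CPM against 41.2 and 44.0 CPM. Here the second Crtc1-/- library lay below both Crtc1+/+ libraries, and the value was 0.33 (SE 0.34, adjusted p = 0.520). Atf3, a stress-induced repressor of the same bZIP class, was at 14.1 and 6.18 CPM against 5.54 and 4.93 CPM, with no overlap. Its log2 fold change of 0.96 (SE 0.57, adjusted p = 0.283) was carried mostly by the first library and was 0.25 without it.

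Egr1, a zinc finger factor, was the most variable of the 9 within eWAT Crtc1+/+, where it was at 27.3 and 122 CPM, against 74.5 and 90.7 CPM in eWAT Crtc1-/-. Both Crtc1-/- libraries lay between the 2 Crtc1+/+ libraries, and the log2 fold change was 0.14 (SE 0.71, adjusted p = 0.899). Leaving out a Crtc1+/+ library gave -0.54 without replicate 1 and 1.62 without replicate 2, so no direction can be read. Ier2, a nuclear regulator, was at 79.7 and 48.0 CPM against 34.6 and 30.4 CPM. The groups did not overlap, and the value was 0.97 (SE 0.35, adjusted p = 0.133). Ier3, a regulator of cell survival, was the one gene below 0, at 27.0 and 10.1 CPM against 23.8 and 31.2 CPM, with overlap and a log2 fold change of -0.57 (SE 0.55, adjusted p = 0.497).

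**Figure D2:**
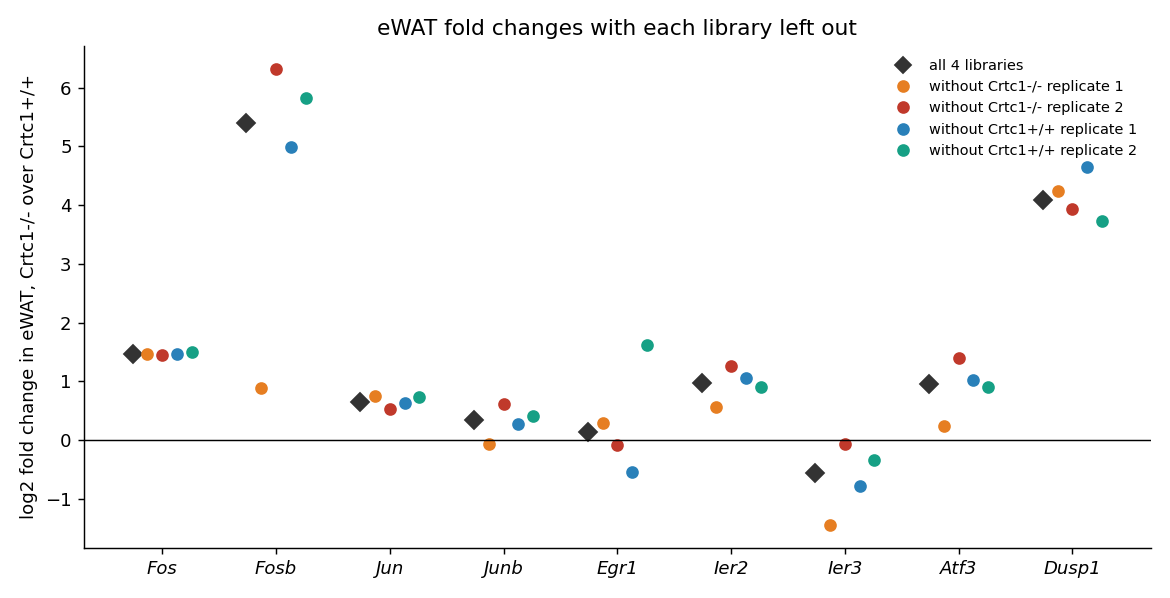
Log2 fold change of each gene in eWAT (Crtc1-/- over Crtc1+/+, y axis) with all 4 libraries (diamonds) and with each library left out in turn (circles). Fos stays between 1.44 and 1.5 and Dusp1 between 3.72 and 4.64, Fosb drops to 0.88 without Crtc1-/- replicate 1, and Egr1 spans 0.

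The same question was asked in liver, where none of these genes passed the test. Junb (1.05) and Atf3 (1.15) had the largest log2 fold changes there, both above their eWAT values of 0.33 and 0.96, and Dusp1 was at 0.41. Of the 9 genes, 8 passed the filter on low counts, Fosb being at 1 to 4 reads per library, and 0 were called by edgeR's quasi-likelihood test, against 0.0854% of 11707 genes tested. At an unadjusted p under 0.05 there were 2, Junb and Atf3, against 17.3% of all genes, and DESeq2 called 0 as well. At the study's threshold 1 of the 8, Junb, was counted, against 4.27% of all genes. The 8 log2 fold changes all lay above 0, as did 50.3% of all genes, with a median of 0.52 against 0.00 over all genes. In 4 of the 8 the groups did not overlap, with Crtc1-/- higher, a pattern held by 25.8% of all genes. Markers of other cell types moved in liver too, with 0 called. Above 0 lay 7 of 7 smooth muscle (median 1.47), 7 of 7 fibroblast (1.03) and 4 of 4 epididymis markers (4.11). So did 9 of 10 endothelial (0.65) and 8 of 12 macrophage markers (0.26). Hepatocyte markers lay above 0 in only 4 of 13 (-0.35), adipocyte markers in 4 of 11 (-0.11) and red blood cell genes in 2 of 5 (-0.56). Their part in these values was not tested.

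Junb was at 24.4 and 30.0 CPM in liver Crtc1-/- and at 10.5 and 15.7 CPM in liver Crtc1+/+. Both Crtc1-/- libraries lay above both Crtc1+/+ libraries. The log2 fold change was 1.05 (SE 0.29, unadjusted p = 0.00536, adjusted p = 0.162), and leaving out liver Crtc1-/- replicate 1 gave 1.20 with an adjusted p of 0.00568. Atf3 was at 3.77 and 4.03 CPM against 2.46 and 1.05 CPM, a log2 fold change of 1.15 (SE 0.46, adjusted p = 0.260). Jun was at 17.9 and 13.4 CPM against 9.24 and 11.3 CPM, a value of 0.61 (SE 0.28, adjusted p = 0.303). For each of these AP-1 genes the groups did not overlap, and none passed the test. Egr1 also did not overlap, at 5.66 and 4.79 CPM against 4.72 and 4.46 CPM, but its log2 fold change was only 0.19.

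Dusp1 overlapped in liver, at 15.6 and 41.6 CPM in Crtc1-/- and at 15.8 and 27.1 CPM in Crtc1+/+. Its log2 fold change was 0.41 (SE 0.44, adjusted p = 0.648), and it turned with the library left out, to 0.96 (adjusted p = 0.0256) without Crtc1-/- replicate 1 and to -0.47 without replicate 2. Fos overlapped as well, at 0.524 and 0.934 CPM against 0.154 and 0.735 CPM, with 3 to 16 reads per library. Ier2 (0.19) and Ier3 (0.42) differed by less than their SEs of 0.30 and 0.56. For Fosb, 1 and 4 reads in Crtc1-/- and 1 and 2 reads in Crtc1+/+ left no difference detectable at this depth.

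**Figure D3:**
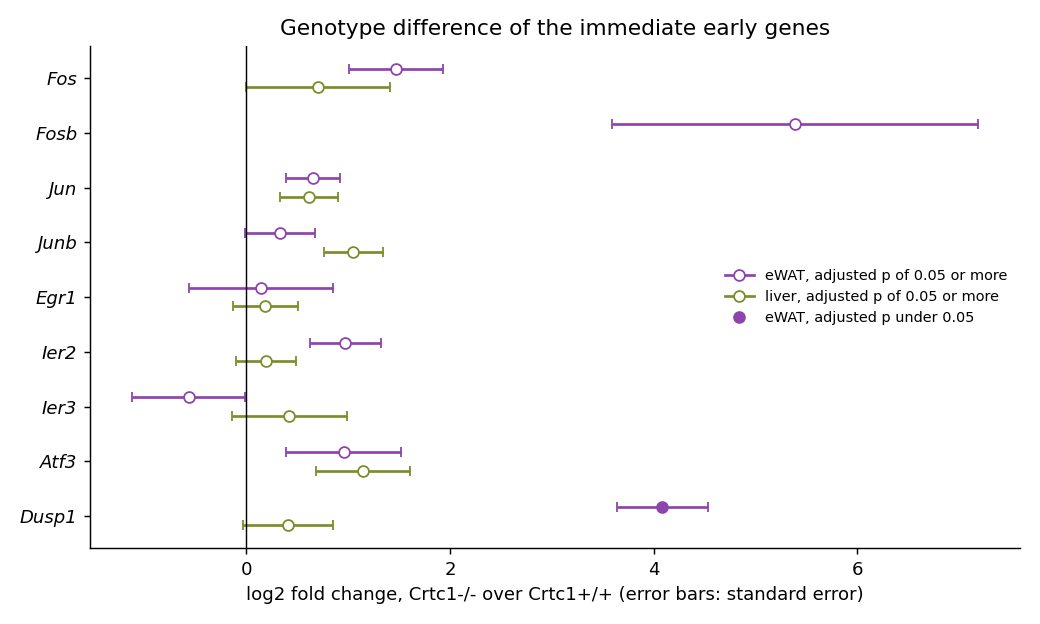
Log2 fold change (x axis, Crtc1-/- over Crtc1+/+) of each immediate early gene in eWAT and in liver, with bars for the standard error and a filled point for an adjusted p under 0.05. Dusp1 in eWAT, at 4.09, is the only filled point, Fosb has the widest bar, and Fosb is not drawn for liver, where it was not tested.

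The difference between tissues in the response to genotype was tested directly, as the interaction of tissue and genotype in a fit of all 8 libraries, which treats the tissues of a mouse as independent. Dusp1 was again the only one of the 9 that passed, with an interaction of 3.61 on the log2 scale (SE 0.79, adjusted p = 0.0420), against 6.94% of 15587 genes called in either direction and 3.78% called higher. It was lost with upper-quartile scaling (3.38, adjusted p = 0.0509), with library-size scaling (3.28, adjusted p = 0.0565), with a block that takes the same number as 1 mouse (3.77, adjusted p = 0.0576), and without any one of 6 libraries, which were the eWAT Crtc1+/+ pair and all 4 liver libraries (values of 3.08 to 4.48, adjusted p of 0.0585 to 0.141). Across the 9 genes 4 interactions lay above 0, as did 44.4% of all genes, and 5 below, with a median of -0.03 against -0.21 over all genes. Fosb had a larger value than Dusp1, 4.41, with a SE of 3.47, and it was 0.10 without eWAT Crtc1-/- replicate 1. Without replicate 2 of that group both Fosb and Dusp1 were called. Junb pointed the other way, at -0.82 (SE 0.40, adjusted p = 0.236), with log2 fold changes of 1.05 in liver and 0.33 in eWAT, and did not pass the test.

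The levels of the genes in each tissue were next compared per transcript length, in FPKM, which divide fragments by transcript length and library size. In liver Crtc1+/+ the order ran from Ier2 (12.6 ± 0.707 FPKM, SD, n = 2) through Dusp1 (11.7 ± 4.26), Junb (7.61 ± 2.10), Jun (3.31 ± 0.438), Egr1 (1.55 ± 0.0778), Ier3 (1.38 ± 0.721), Atf3 (0.945 ± 0.544) and Fos (0.225 ± 0.205) to Fosb (0.025 ± 0.00707). Neighbours whose libraries overlapped were Ier2 and Dusp1, Dusp1 and Junb, Egr1 and Ier3, and Ier3 and Atf3. In eWAT Crtc1+/+ the order began with Ier3 (32.6 ± 5.57), Egr1 (28.2 ± 24.9), Junb (28.1 ± 0.679) and Ier2 (26.4 ± 2.95), whose neighbours all overlapped, followed without overlap by Jun (14.1 ± 0.354), Dusp1 (6.85 ± 3.14), Atf3 (3.20 ± 0.332), Fos (1.83 ± 0.0283) and Fosb (0.38 ± 0.127). Dusp1 thus stood in sixth place in eWAT Crtc1+/+, while in eWAT Crtc1-/- it stood first, at 92.0 and 92.5 FPKM, without overlap with the next gene, Ier2, at 56.9 and 28.2 FPKM. Below Dusp1 every pair of neighbours in eWAT Crtc1-/- overlapped, down to Fos at 4.50 and 3.67 FPKM. In liver Crtc1-/- the top 3 were Junb (16.3 ± 2.62), Dusp1 (16.2 ± 10.6) and Ier2 (14.8 ± 4.93), all overlapping.

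**Figure D4:**
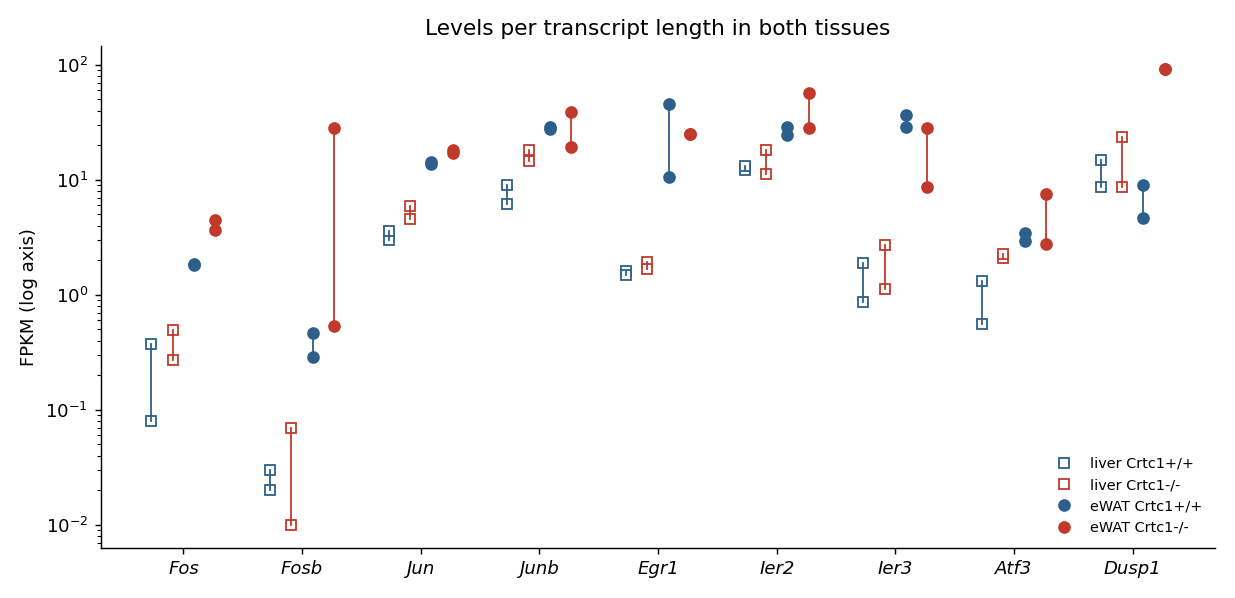
FPKM of each gene on a log axis in the 4 groups, with open squares for liver, filled circles for eWAT, red for Crtc1-/- and blue for Crtc1+/+, and a line joining the 2 libraries of a group. Fosb is lowest in liver and in eWAT Crtc1+/+, and the eWAT Crtc1-/- libraries of Dusp1, at 92.0 and 92.5 FPKM, are the highest values drawn.

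Between tissues, scaled over all 8 libraries, 3 of the 9 genes were called in Crtc1+/+ against 54.9% of 15587 genes. Ier3 was higher in eWAT by 3.16 on the log2 scale (SE 0.63, adjusted p = 0.00680), at 16.1 and 20.5 CPM in eWAT and 2.78 and 1.30 CPM in liver. Egr1 was higher in eWAT by 2.79 (SE 0.64, adjusted p = 0.0110), at 18.5 and 80.2 CPM against 7.29 and 6.92 CPM. Dusp1 was the only gene called lower in eWAT, by a log2 difference of -2.18 (SE 0.57, adjusted p = 0.0173), at 9.71 and 4.97 CPM against 24.4 and 42.0 CPM, and Dusp1 missed the threshold without eWAT Crtc1+/+ replicate 2 (adjusted p = 0.0894), without liver Crtc1+/+ replicate 2 (adjusted p = 0.0872) and with library-size scaling (-0.77, adjusted p = 0.222). Egr1 missed it without either liver Crtc1+/+ library (adjusted p of 0.0663 and 0.0685), and its value fell to 1.36 (adjusted p = 0.0233) without eWAT Crtc1+/+ replicate 2. Ier2 also lay lower in eWAT without overlap, at 23.4 CPM or less against 25.9 CPM or more, and its value of -0.33 (adjusted p = 0.386) did not pass the test. Fosb was at or under 3 reads in both liver Crtc1+/+ libraries, and set against that floor in each library its mean in eWAT was at least 3.33-fold higher. That bound holds for this scaling only. The test did not call Fosb (2.67, adjusted p = 0.295), and 2 of 17 alternatives, both with limma, changed its sign, to as low as -0.73.

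In Crtc1-/-, 4 of the 9 were called higher in eWAT, Fos (2.31, adjusted p = 0.0485), Fosb (7.09, adjusted p = 0.0288), Egr1 (2.70, adjusted p = 0.0230) and Ier3 (2.05, adjusted p = 0.0442), against 27.8% of all genes in either direction and 18.9% higher. Hepatocyte markers held 10.3% of the counts in eWAT Crtc1-/- replicate 2, against 0.108% in replicate 1. In this contrast 0 of 13 hepatocyte markers were called lower in eWAT (median -2.88), against 13 of 13 in Crtc1+/+ (median -7.37). Their part in the differences between tissues was not tested. The Fosb call rested on 1 library, and the value was 2.76 (adjusted p = 0.158) without eWAT Crtc1-/- replicate 1. Without either liver Crtc1-/- library 0 of the 4 were called, and without eWAT Crtc1-/- replicate 1 only Egr1 was. With the mouse block 2 were, Fosb and Egr1, while Fos (adjusted p = 0.0547) and Ier3 (adjusted p = 0.102) missed the threshold. Dusp1 stood at 98.5 and 138 CPM in eWAT against 24.2 and 63.6 CPM in liver, a difference of 1.43 (adjusted p = 0.0905). The groups did not overlap, and the order of the tissues was the reverse of that in Crtc1+/+, which uses the same libraries as the interaction above. Jun was alike in both genotypes, at 0.69 in Crtc1+/+ (adjusted p = 0.0503) and 0.66 in Crtc1-/- (adjusted p = 0.0852). Scaling mattered here, since the TMM factors were 1.21 to 1.68 in eWAT and 0.627 to 0.676 in liver. Library-size scaling moved the median of all genes in Crtc1+/+ from 0.61 to 2.0 and called 7 of the 9 higher in eWAT in each genotype, turning Ier2 in Crtc1+/+ to 1.07 and Junb in Crtc1-/- to 0.83. With it 10702 of all genes were called higher and 1124 lower in Crtc1+/+, against 5461 and 3091.

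Other immediate early genes were counted from a list of 60 symbols, of which 58 were in the table. In eWAT 55 were tested, 41 lay above 0 with a median of 1.17, and 14 were called higher and 3 lower, or 30.9% against the 12.2% of all genes. Upper-quartile scaling called 8 higher and 3 lower, library-size scaling 6 and 3, and DESeq2 26 and 4. The most significant were Egr2 (-5.96, SE 0.71, adjusted p = 0.0192), Cebpd (2.28, SE 0.28, adjusted p = 0.0194) and Mafk (2.09, SE 0.26, adjusted p = 0.0197). Egr2, the close relative of Egr1, was at 3.35 and 1.39 CPM in eWAT Crtc1-/- and at 94.4 and 204 CPM in eWAT Crtc1+/+, with no overlap. Cebpd, a bZIP factor of adipocyte differentiation and the acute phase, was at 83.1 and 96.6 CPM against 19.5 and 17.5 CPM. Mafk, a small MAF protein, was at 106 and 101 CPM against 24.7 and 23.7 CPM. Ptgs2, the inducible cyclooxygenase, and Dusp5 were the other genes called lower, and Ptgs2 was at the floor in both Crtc1-/- libraries. In liver 44 of the list were tested and 0 were called (9 at an unadjusted p under 0.05, and 1 by DESeq2), the smallest p being that of Nfil3 (-1.28, adjusted p = 0.149) and Ier5l (2.11, adjusted p = 0.187). In the interaction 4 were called higher, with Mafk (1.75, adjusted p = 0.0152), Sgk1 (2.99, adjusted p = 0.0308) and Nfil3 (2.37, adjusted p = 0.0368) among them, and 1, Egr2 (-7.92, adjusted p = 0.0180), lower. With library-size scaling 0 were called higher and 1 lower.

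**Figure D5:**
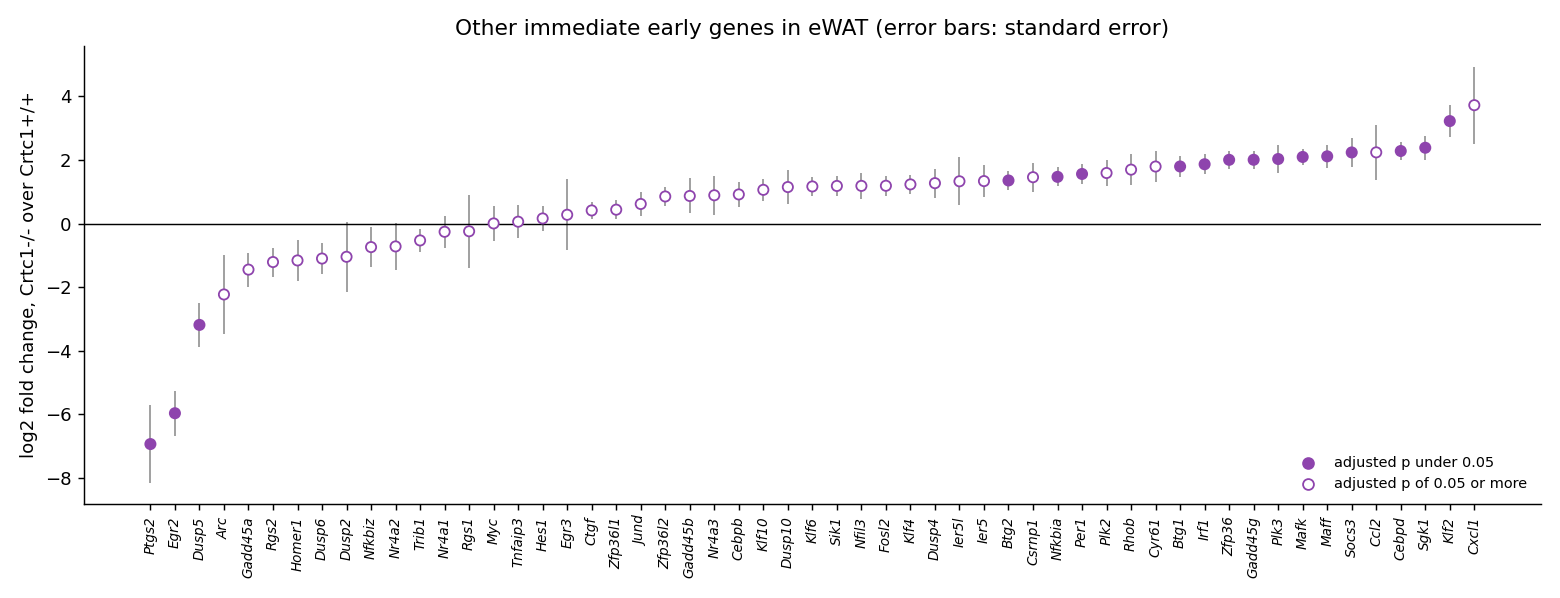
Log2 fold change in eWAT (Crtc1-/- over Crtc1+/+, y axis) of the 55 other immediate early genes tested, ordered by value, with bars for the standard error and filled points for an adjusted p under 0.05. Of the 17 filled points 14 lie above 0, and Ptgs2, Egr2 and Dusp5 lie below.

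Of the kinases and factors that act upstream of these genes, 33 were tested in eWAT and 2 were called, both higher, namely the Ets factor Elk3 (2.05, adjusted p = 0.0289) and the ERK kinase Mapk3 (2.03, adjusted p = 0.0385), or 6.06% against 12.2% of all genes. Library-size scaling called 0 and DESeq2 6 higher and 1 lower. Mapk3 was at 581 and 399 CPM in eWAT Crtc1-/- and at 139 and 100.3 CPM in eWAT Crtc1+/+. In liver 0 of 32 were called (5 at an unadjusted p under 0.05, and 1 by DESeq2), and Crebbp, the acetyltransferase that CREB recruits, had the smallest p (1.33, adjusted p = 0.137), followed by the p38 kinase Mapk14 (-0.94, adjusted p = 0.181). The interaction called Mapk3 (1.96, adjusted p = 0.0420) and Mapk14 (1.72, adjusted p = 0.0497), or 6.06% of the 33 against 6.94% of all genes. Upper-quartile and library-size scaling each called 0, and DESeq2 called 2.

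Of 12 dimer partners of AP-1, 4 were called higher in eWAT (33.3%, against 6.65% of all genes called higher), led by Mafk, Jdp2 (2.93, SE 0.45, adjusted p = 0.0263) and Maff (2.11, SE 0.37, adjusted p = 0.0320), and none lower. Mafk and Maff were also on the list of other immediate early genes, so their calls are counted in both lists. Library-size scaling called 2 and DESeq2 6, all higher. Jdp2, a repressor that pairs with JUN proteins, was at 56.9 and 33.7 CPM against 4.91 and 7.0 CPM. In liver 0 of 11 were called (2 at an unadjusted p under 0.05, and 0 by DESeq2), with Nfe2l2 at -0.78 (adjusted p = 0.246) and Maf at 0.72 (adjusted p = 0.267). In the interaction 1 of 12 was called, Mafk, or 8.33% against 6.94% of all genes. Upper-quartile scaling called 1, library-size scaling 0 and DESeq2 3.

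The other MAP kinase phosphatases were counted beside Dusp1, and Dusp5 among them was also on the list of other immediate early genes. Of the 9 tested in eWAT, 1 was called, Dusp5, a nuclear phosphatase of ERK, and it was lower (-3.19, SE 0.69, adjusted p = 0.0495), at 0.824 and 0.555 CPM in Crtc1-/- and 4.53 and 8.19 CPM in Crtc1+/+. That is 11.1% of the 9, close to the 12.2% of all genes called in either direction, and their median was -0.14. In liver 0 of 5 were called (1 at an unadjusted p under 0.05, and 0 by DESeq2), with Dusp6 at -0.68 (adjusted p = 0.267) and Dusp7 at 0.56 (adjusted p = 0.453), and in the interaction 0 of 9 (1 at an unadjusted p under 0.05, and 1 by DESeq2). Heat shock genes, which respond to protein damage, were counted as well. In eWAT 1 of 10 was called, Hspb1, a small heat shock protein (2.58, SE 0.36, adjusted p = 0.0232), or 10% against the same 12.2%, with a median of 0.41 over the 10. In liver 0 of 10 were called (3 at an unadjusted p under 0.05, and 1 by DESeq2), Hspb1 pointing the other way (-2.13, adjusted p = 0.0668) and Hspa1a, the inducible HSP70, at 2.63 (adjusted p = 0.162). The interaction called Hspb1 (4.61, adjusted p = 0.00959).

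The genes whose pattern was most like the mean of the 9 were sought by the root mean square difference of mean-centred log2 CPM among 11019 genes. Over all 8 libraries they were Fam174b (0.171), Myadm (0.175), Tnip2 (0.189), Plekhg2 (0.191) and Map3k3 (0.209). Within the 4 eWAT libraries they were Loxl2 (0.0437), Snx11 (0.0531), Clmp (0.0659), Maoa (0.0704) and Anxa11 (0.0828). The distances of the 9 genes from their own mean ran from 0.515 for Jun to 1.80 for Fosb over all 8 libraries. Within eWAT they ran from 0.248 for Ier2 to 1.93 for Fosb. The named genes were picked as the nearest, so they cannot show whether the 9 were less like the mean than other genes. At 1.80 for Fosb and 1.38 for Dusp1 over all 8 libraries, the mean does not stand for a pattern that each of the 9 followed.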

How the data were processed

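The deposited tables hold estimated counts per gene, not normalized by the authors, and deposited FPKM, which scale by transcript length and library total. The submitters' processing notes name HISAT, Bowtie2 and the build GRCm38.p6, without versions. Counts were rounded (the values of the 9 genes were all whole). Each tissue was fitted by edgeR 4.0.16 (R 4.3.3) with filterByExpr, TMM and the quasi-likelihood test, p-values being adjusted by Benjamini-Hochberg across every gene tested, and the interaction and tissue contrasts in a fit of all 8 libraries. CPM were scaled within each tissue, or over 8 libraries for tissue contrasts. Alternatives were DESeq2 1.42.0, limma 3.58.1 on quantile-normalized FPKM, no filter, a mean count of at least 50, other scalings, the replicate block, 1 fit of all libraries, removal of epididymis markers and each library left out. The test was checked on simulated data. The 9 genes and all lists were chosen with earlier results of these data known. Beside the 9, up to 3 called genes of each list with the smallest adjusted p were named, up to 2 by unadjusted p where a genotype comparison had no call, and the 5 genes nearest to the mean of the 9. The labels give only replicate numbers, but the study's methods describe 2 biological replicates in each group. By those methods the p-values measure the spread between mice, with only 2 mice of each genotype. Counting error limits Fos and Fosb in liver.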

Additional observations from a re-analysis of the deposited data

Results flagged for a closer look

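Dusp1 stood out because its genotype difference was not the same in both tissues by the test of that difference. The interaction was 3.61 on the log2 scale (SE 0.79, adjusted p = 0.0420 in edgeR's quasi-likelihood test), with log2 fold changes of 4.09 in eWAT and 0.41 in liver. Over the alternatives the interaction ran from 3.08 to 4.48 with adjusted p from 0.000444 to 0.141, and 9 of 17 alternatives missed the threshold. The makeup of the eWAT libraries moved with it, with epididymis markers at 9.14% and 10.5% of the counts in eWAT Crtc1+/+ and at 0.00597% and 0.00168% in eWAT Crtc1-/-, and their part was not tested. Groups of 2 libraries were too small for a test of single outlying samples.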

How the results depend on the processing

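In eWAT 1 of the 9 genes was called, and 3 were with DESeq2 (Fos, Fosb, Dusp1), 2 with limma on either pseudocount (Fos, Dusp1), 2 in 1 fit of all 8 libraries (Fosb, Dusp1) and 0 to 2 with a library left out. In liver 0 were called, and 0 to 2 with a library left out. In the interaction 1 was called, 0 with upper-quartile and with library-size scaling, and 0 to 2 with a library left out. Between tissues 3 were called in Crtc1+/+ and 7 with library-size scaling, and 2 to 4 with a library left out. In Crtc1-/- 4 were called, 7 with library-size scaling, 2 and 0 with limma on log2(FPKM + 1) and log2(FPKM + 0.1), and 0 to 3 with a library left out.

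Between genotypes the libraries share only a number, and deviations of same-numbered libraries correlated at 0.0142 in eWAT and 0.0754 in liver. Between tissues the same mice were used, but whether a number marks a mouse is not stated, and the correlations were 0.00576 in Crtc1-/- and 0.271 in Crtc1+/+. With the replicate block, 0 of the 9 were called in eWAT (Dusp1 4.15, adjusted p = 0.0543), 0 in the interaction (Dusp1 3.77, adjusted p = 0.0576), 3 between tissues in Crtc1+/+ and 2 in Crtc1-/-.

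Over single genes, 571 of 687 alternatives kept direction and side of the threshold, 48 fell below it, 22 rose past it and 46 changed sign, of which 1 passed the threshold, Ier2 between tissues in Crtc1+/+ (1.07, adjusted p = 0.0355, library-size scaling). Sign changes in eWAT were Egr1 with upper-quartile (-0.030) and library-size scaling (-0.16), and Junb with limma on both pseudocounts (-0.0052 and -0.0065). In the interaction they were Jun (0.075, 0.053 and 0.033) and Egr1 (0.026, 0.17 and 0.21) with DESeq2 and both limma fits, Atf3 (0.22 and 0.41) with limma, and Egr1 (0.24) with the replicate block. Between tissues in Crtc1+/+ they were, with limma on both pseudocounts, Fos (-0.11 and -0.21), Fosb (-0.20 and -0.73), Ier2 (0.086 and 0.091) and Atf3 (-0.48 and -0.78). In Crtc1-/- they were Junb with library-size scaling (0.83) and Atf3 with limma (-0.26 and -0.37) and with the replicate block (-0.025). With a library left out, the ranges that crossed 0 were, in eWAT, Junb -0.065 to 0.62 and Egr1 -0.54 to 1.62, and in liver Ier2 -0.20 to 0.50, Ier3 -0.34 to 1.06, Dusp1 -0.47 to 0.96 and Fos -0.030 to 2.18. In the interaction they were Jun -0.22 to 0.21, Egr1 -0.80 to 1.34, Atf3 -1.04 to 0.25 and Fos -0.82 to 1.42, and for Atf3 between tissues -0.13 to 1.09 in Crtc1+/+ and -0.53 to 0.44 in Crtc1-/-. The causes were not tested.

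Over all genes, 1875 were called in eWAT, 4620 with DESeq2, 3861 in 1 fit of all libraries, 0 with the block and 0 to 3073 with a library left out. In liver 10 were called, 311 with DESeq2, 301 without a filter, 82 with the block, 0 with limma and in 1 fit, and 1 to 1507 with a library left out. In the interaction 1081 were called, 2056 with DESeq2, 705 with library-size scaling, 2533 and 2390 with limma, and 0 to 2261 with a library left out. Between tissues 8552 and 4330 were called, 7127 in Crtc1-/- with library-size scaling, and 4285 to 8872 and 1511 to 5962 with a library left out.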

Other observations

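In eWAT, some or all markers of blood vessels, blood and macrophages were called higher in the libraries labelled Crtc1-/-, and some of smooth muscle lower. Cdh5, the adhesion molecule of endothelial junctions, was at 1314 and 849 CPM in eWAT Crtc1-/- and at 56.9 and 68.1 CPM in eWAT Crtc1+/+, and 10 of 10 endothelial markers were called higher, with a median log2 fold change of 3.67. Of 5 red blood cell genes 3 were called higher (1 with upper-quartile or library-size scaling), with Hba-a1 at 2498 and 1876 CPM against 396 and 126 CPM. Of 12 macrophage markers 3 were called higher (0 with upper-quartile or library-size scaling, 9 with DESeq2), and all 12 lay above 0 (median 2.10, and 11 of 12 with either of those scalings), with C1qa at 372 and 179 CPM against 80.0 and 39.3 CPM. Of 4 neutrophil markers tested 1 was called higher, and 0 with upper-quartile or library-size scaling. Of 8 smooth muscle markers 3 were called lower, with Actg2 at 28.5 and 2.22 CPM against 1709 and 1667 CPM. Fibroblast markers split, with 1 of 8 called higher and 1 lower, and 1 of 6 mesothelium markers was called lower. Of 13 hepatocyte markers 0 were called in eWAT, with Alb at 522 and 65412 CPM in Crtc1-/- and 2761 and 422 CPM in Crtc1+/+.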
